A study of Rattus norvegicus with 9 samples.

Results

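Cd36, Fabp1, Fabp7, Plin2, Dgat2, Cidec, Abhd5 and Pemt are 8 genes of fatty acid uptake, triglyceride synthesis and lipid droplet handling. Their mRNA was measured in livers of neonatal rats given CSF1-Fc or PBS and in bone marrow-derived macrophages (BMDM). A gene was included where the array annotation tied a probe set to its symbol and to no other gene. Each of the 8 genes had 1 such probe set. The array held 36685 probe sets, of which 14824 carried exactly 1 symbol and together named 14557 genes.

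Fatty acids enter a cell through membrane proteins such as CD36 and are carried in the cytosol by fatty acid binding proteins. Acyltransferases of the endoplasmic reticulum join them to glycerol, and the resulting triglyceride is stored in droplets under a phospholipid layer coated with perilipins and CIDE proteins. Droplet lipid is released by lipases, and the liver exports triglyceride in very low-density lipoprotein (VLDL), whose shell is mainly phosphatidylcholine. Macrophages take up lipid through CD36 as well.

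The livers came from Sprague-Dawley pups born to dams that had been injected with PBS, so both liver groups shared that maternal injection. Newborn pups were injected with a pig CSF1-Fc fusion protein (4 livers) or PBS (2 livers) for 5 days, and the organ was taken on day 6. BMDM (3 arrays) were grown from Dark Agouti rat marrow for 7 days in CSF1. Strain, culture and cell type therefore differ together between BMDM and liver and cannot be told apart. The liver samples were whole tissue, in which more cells of a type and more RNA per cell cannot be told apart either. Nothing in the labels says whether the 3 BMDM arrays came from separate animals, so their p-values measure the spread between these samples.

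Values are log2 expression after robust multi-array averaging (RMA), so a difference of 1 is a doubling. The array medians lay between 3.75 and 3.87. PBS liver 2 stood somewhat apart, with correlations of 0.951 to 0.962 with the other livers against 0.971 to 0.985 among the rest. The labels fitted the markers: 10 of 14 plasma protein genes of hepatocytes were measured, and their log2 summed signal was 15.49 to 15.70 in the 6 livers and 8.17 to 8.35 in BMDM. For the 11 measured pan-macrophage genes this sum was 13.51 to 13.58 in BMDM, although the complement genes C1qa, C1qb and C1qc of that list were low there, at 3.36 to 7.01. The 8 measured genes of the fat cell list had a log2 summed signal of 10.63 to 11.59 in the livers and 7.13 to 8.20 in BMDM. The brightest of them in liver was Pck1, an enzyme of gluconeogenesis that hepatocytes also express, at 10.22 to 11.37, followed by Aqp7 at 8.01 to 8.56. The defining fat cell genes Adipoq, Lep and Plin1 were between 1.82 and 3.62 on the 6 liver arrays.

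The first comparison asked how CSF1-Fc treatment altered these genes in the liver. Cd36 mRNA was 4.79-fold higher in CSF1-Fc-treated than in PBS-treated liver. None of the other genes passed the test, but 6 of them (Fabp1, Fabp7, Dgat2, Cidec, Abhd5 and Pemt) were lower in all 4 treated livers than in both PBS livers, by 0.57 to 0.99 log2 units, and Plin2 overlapped between the groups. With limma and adjustment over all probe sets, 1 of 8 genes rose and 0 fell at an adjusted p under 0.05. Over the whole array 1.22% of probe sets rose and 0.254% fell. At an unadjusted p under 0.05, 1 gene was higher and 5 were lower, against 7.31% and 6.40% of all probe sets. Arrays of the 2 groups failed to overlap for 10.3% of probe sets in the upward and 10.4% in the downward direction. The median difference over the 8 genes was -0.60, beside -0.03 over all probe sets. The count of 1 rested on every treated liver: without any one of them 0 genes passed, and without PBS liver 1 it was 2.

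**Figure D1:**
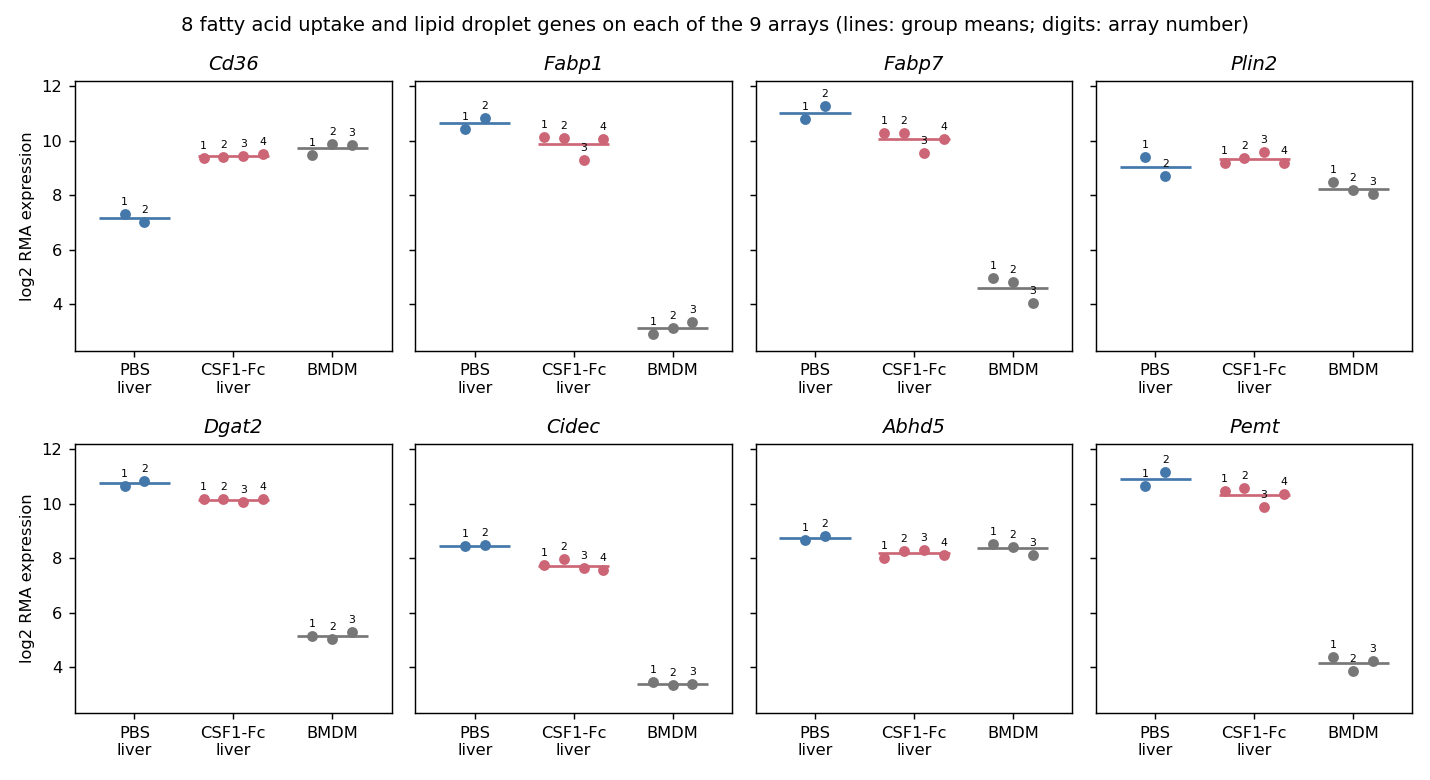
Log2 RMA expression (vertical axis) of the 8 genes on each of the 9 arrays, 1 panel per gene. Points are single arrays marked with their replicate number and horizontal lines are group means. Cd36 was at 9.37 to 9.52 in the CSF1-Fc livers against 7.04 and 7.32 in the PBS livers, whereas Fabp1, Fabp7, Dgat2, Cidec, Abhd5 and Pemt were lower in every CSF1-Fc liver.

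Cd36 encodes the membrane protein that takes up long-chain fatty acids and, on macrophages, oxidized lipoprotein. Its log2 expression was 9.37, 9.41, 9.45 and 9.52 in the 4 CSF1-Fc livers, 7.32 and 7.04 in the PBS livers, and 9.47, 9.88 and 9.87 in BMDM. The treated livers lay within 0.15 log2 units of each other, far above both controls and close to the cultured macrophages. The difference between the liver groups was 2.26 (SE 0.13, 95% interval 1.93 to 2.59, limma adjusted p = 0.0116), and its p-value ranked 3 among all 36685 probe sets. Without any one CSF1-Fc liver the difference stayed between 2.23 and 2.28, with adjusted p from 0.0544 to 0.0720, when 0 probe sets of the array passed. Without PBS liver 1 or 2 it was 2.40 (adjusted p = 0.0264) or 2.12 (adjusted p = 0.0322).

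Macrophage genes were higher in the same livers. Of the 11 measured pan-macrophage genes, 8 rose and all 11 were higher in every treated liver than in both controls, with a median difference of 1.82. Their log2 summed signal was 13.97 to 14.09 in CSF1-Fc liver and 12.12 to 12.54 in PBS liver. Csf1r, the CSF1 receptor, rose by 1.82 (adjusted p = 0.0128) and Cd68 by 1.86 (adjusted p = 0.0135). Of the 9 measured Kupffer cell genes 7 rose, among them Marco and Vsig4, with a median difference of 1.61, while Clec4f, a defining gene of these cells, was at 1.36 (adjusted p = 0.133). Within an array, Cd36 minus the mean of the pan-macrophage genes was -0.95 to -0.84 in the CSF1-Fc livers and -0.92 and -1.73 in PBS livers 1 and 2. This offset overlapped between the liver groups, whereas it was 0.41, 1.01 and 1.15 in BMDM. The list mean itself was 8.72 to 9.06 in BMDM and 10.30 to 10.39 in CSF1-Fc liver, and it includes the C1q genes that were low in BMDM. The BMDM offset therefore depends on the genes of the list and is no measure of Cd36 per macrophage. Cd36 minus the mean of the Kupffer cell genes did not overlap between the liver groups. It was -0.08 to 0.11 in the CSF1-Fc livers and -0.26 and -0.72 in PBS livers 1 and 2. Between the PBS livers, Cd36 was 0.28 lower in the animal whose pan-macrophage mean was higher. The part of macrophage RNA in the Cd36 difference was not tested.

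**Figure D2:**
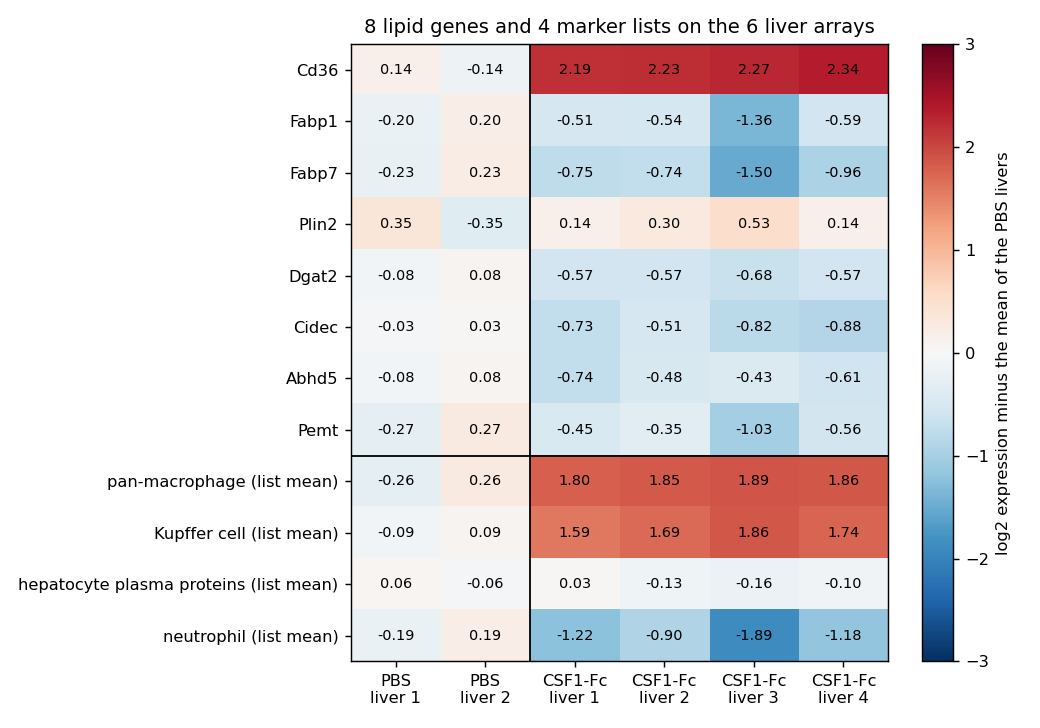
Log2 expression of the 8 genes and mean log2 expression of 4 marker gene lists in the 6 livers (columns), each minus the mean of the PBS livers (colour scale and printed values). Cd36 and both macrophage lists are red in the 4 CSF1-Fc livers, the plasma protein list stays between -0.16 and 0.06, and CSF1-Fc liver 3 holds the lowest values of Fabp1, Fabp7, Dgat2 and Pemt.

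Fabp1 and Fabp7 encode cytosolic fatty acid binding proteins. Fabp1 is the liver form, and Fabp7 is best known from developing brain. Fabp1 was at 10.13, 10.11, 9.28 and 10.06 in the CSF1-Fc livers and at 10.44 and 10.85 in the PBS livers. All treated values were below both controls, but CSF1-Fc liver 3 was far below the other treated livers. The difference was -0.75 (SE 0.29, 95% interval -1.44 to -0.06, adjusted p = 0.324), and -0.55 without that liver. Fabp7 was at 10.29, 10.31, 9.54 and 10.08 in the CSF1-Fc livers and at 10.81 and 11.27 in the PBS livers. It was again lowest in CSF1-Fc liver 3 and highest in PBS liver 2. Its difference of -0.99 (SE 0.27, 95% interval -1.63 to -0.34, adjusted p = 0.172) was the most negative of the 8 genes.

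The bases before the start sites of the uptake gene, which rose, and of both binding protein genes, which did not pass the test, are shown for reference. RefSeq promoter entries (build GRCr8) were matched for 7 of the 8 genes, all but Dgat2. Each run is the 250 bases before the listed start, 5′ to 3′ on the gene's strand, which is the plus strand for all 3 genes. Each start lies inside the gene's annotated span, which covers several transcripts. Capitals mark AGGNCANAGGTCA, the half-site AGGTCA that it contains, and TATAAA, on either strand; the repeat is of the kind bound by nuclear receptors such as the PPARs.
Cd36 (chr4:18246332-18246581): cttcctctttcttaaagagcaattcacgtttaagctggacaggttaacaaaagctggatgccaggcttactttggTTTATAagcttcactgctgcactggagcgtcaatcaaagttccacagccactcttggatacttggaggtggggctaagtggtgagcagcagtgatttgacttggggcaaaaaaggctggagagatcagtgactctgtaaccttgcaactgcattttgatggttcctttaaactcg
Fabp1 (chr4:104749090-104749339): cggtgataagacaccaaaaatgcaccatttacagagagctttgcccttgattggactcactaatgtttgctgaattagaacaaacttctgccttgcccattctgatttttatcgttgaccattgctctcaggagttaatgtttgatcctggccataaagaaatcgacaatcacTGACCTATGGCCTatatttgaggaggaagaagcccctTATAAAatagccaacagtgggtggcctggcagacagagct
Fabp7 (chr20:37669356-37669605): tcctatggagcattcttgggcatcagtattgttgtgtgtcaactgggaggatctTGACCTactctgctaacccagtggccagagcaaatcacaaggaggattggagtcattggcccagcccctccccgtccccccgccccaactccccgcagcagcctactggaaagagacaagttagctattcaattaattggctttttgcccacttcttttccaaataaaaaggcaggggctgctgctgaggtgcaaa

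In the Fabp1 run the repeat read AGGCCATAGGTCA on the minus strand, from -77 to -65 relative to the start, and TATAAA lay on the plus strand from -40 to -35. AGGNCANAGGTCA was found in 0.0866% of 33469 promoter windows of the same length. Of the marked motifs, the Fabp7 run held only the half-site, on the minus strand from -196 to -191, a match present in 14.1% of windows. The Cd36 run held TATAAA on the minus strand, from -175 to -170, as did 12.9% of windows on one strand or the other. These matches describe letters in the windows and not binding.

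Dgat2 encodes diacylglycerol acyltransferase 2, which completes a triglyceride. It was at 10.18, 10.17, 10.07 and 10.17 in the CSF1-Fc livers and at 10.67 and 10.82 in the PBS livers. The treated livers lay within 0.11 log2 units of each other and below both controls. The difference was -0.60 (SE 0.12, 95% interval -0.89 to -0.31), 1.51-fold lower, with an adjusted p of 0.0854. It passed without PBS liver 1 (adjusted p = 0.0393) and when only probe sets with 1 symbol were tested (adjusted p = 0.0325). Over the alternatives its adjusted p was between 0.0325 and 0.694.

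Plin2 and Cidec encode droplet coat proteins. Plin2 is the perilipin that covers droplets in most cells, and Cidec promotes the fusion of small droplets into large ones. Plin2 was at 9.20, 9.36, 9.59 and 9.20 in the CSF1-Fc livers and at 9.41 and 8.71 in the PBS livers. The PBS livers spanned more than the treated ones and enclosed 3 of them. The difference was 0.28 (SE 0.23, 95% interval -0.28 to 0.84, adjusted p = 0.644), and it was -0.07 without PBS liver 2, so no direction is given. Cidec was at 7.73, 7.96, 7.64 and 7.58 in the CSF1-Fc livers and at 8.43 and 8.49 in the PBS livers. The groups were separated by more than either of them spanned. Its difference was -0.73 (SE 0.15, 95% interval -1.09 to -0.38, adjusted p = 0.0868), 1.66-fold lower. It passed when only probe sets with 1 symbol were tested (adjusted p = 0.0334), and over the alternatives its adjusted p was between 0.0334 and 0.679.

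Abhd5 encodes the coactivator of the lipase ATGL, which starts droplet breakdown. It was at 7.997, 8.26, 8.31 and 8.13 in the CSF1-Fc livers and at 8.66 and 8.82 in the PBS livers. The treated values were all lower, with CSF1-Fc liver 3 the highest of them. The difference was -0.57 (SE 0.14, 95% interval -0.91 to -0.22, adjusted p = 0.149).

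Pemt encodes the enzyme that methylates phosphatidylethanolamine to phosphatidylcholine. It was at 10.46, 10.56, 9.88 and 10.35 in the CSF1-Fc livers and at 10.64 and 11.17 in the PBS livers. PBS liver 1 was only just above the highest treated liver. The difference was -0.59 (SE 0.25, 95% interval -1.20 to 0.01, adjusted p = 0.374).

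Single livers stood out alike for several of these genes. Fabp1, Fabp7, Dgat2 and Pemt had their lowest treated value in CSF1-Fc liver 3, while Plin2 and Abhd5 had their highest there. The 6 genes other than Cd36 and Plin2 were higher in PBS liver 2 than in PBS liver 1. Of the 10 measured plasma protein genes of hepatocytes, 0 passed in limma (1 was lower at an unadjusted p under 0.05), and 8 of the differences were negative, with a median of -0.06. The mean of these genes was also lowest in CSF1-Fc liver 3, at -0.16 relative to the mean of the PBS livers. Relative to the mean of those plasma protein genes on the same array, Fabp1, Fabp7, Dgat2, Cidec and Abhd5 were lower in all 4 CSF1-Fc livers than in both PBS livers. Without this centring 10.4% of all probe sets were lower in that way, and the share with it was not computed. For Dgat2 the offset from that mean was -2.12 to -1.97 against -1.66 and -1.38, and for Cidec it was -4.59 to -4.18 against -3.89 and -3.72. For Pemt the offsets overlapped, at -2.22 to -1.58 against -1.69 and -1.03. Centred on these genes, the difference was -0.51 for Dgat2 (adjusted p = 0.236) and 2.35 for Cd36 (adjusted p = 0.0117). In the same limma fit the adjusted p was 0.383 for Fabp1, 0.196 for Fabp7, 0.184 for Cidec and 0.388 for Abhd5.

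Of the other markers, 9 neutrophil genes had a median difference of -1.82 between CSF1-Fc and PBS liver, and none passed in limma. Before adjustment, 6 of them were lower and 1 was higher with p under 0.05. Their log2 summed signal was 9.40 to 10.57 in the treated and 11.72 to 12.01 in the control livers. Dcn and Lum, matrix genes of stellate cells and fibroblasts, fell by 1.35 (adjusted p = 0.0317) and 2.17 (adjusted p = 0.0128), as 2 of the 8 measured genes of their list. No measured gene of the endothelial, fat cell, erythroid or platelet lists passed in limma, and 1 to 4 genes of each had an unadjusted p under 0.05. The part of these cell types in the differences of the 7 genes other than Cd36 was not tested.

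**Figure D3:**
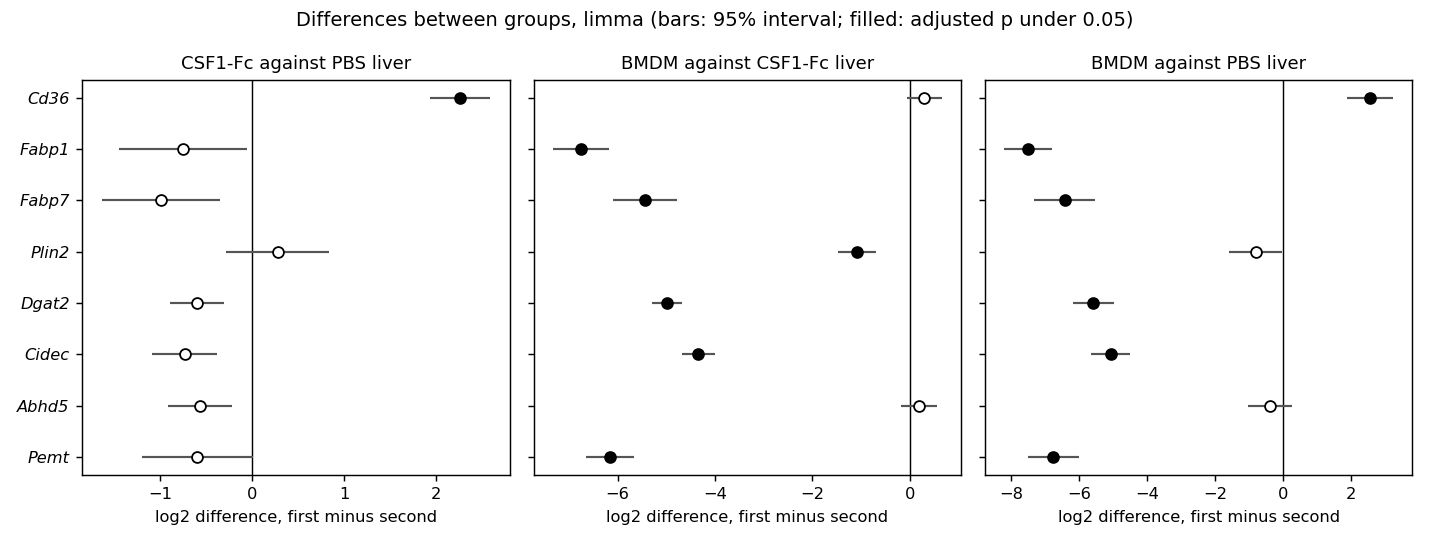
Differences between groups in log2 units (horizontal axis) for the 8 genes in 3 comparisons, with 95% intervals from limma as bars. Filled points have an adjusted p under 0.05. Cd36 is filled and positive against PBS liver in CSF1-Fc liver (2.26) and in BMDM (2.56), whereas 6 genes are filled and negative in BMDM against CSF1-Fc liver.

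The wider pathways were examined through 7 lists that held 138 genes, of which 101 were measured. Apart from the 8 genes described above, 4 of 93 measured genes rose in CSF1-Fc liver and 0 fell by limma. Before adjustment, 10 were higher and 14 lower with p under 0.05. Their median difference was 0.03, beside -0.03 over all probe sets. Each of the 4 acts beside the main route of its list. Soat1, listed with triglyceride synthesis, esterifies cholesterol. It was at 7.97 to 8.05 in the CSF1-Fc livers and at 6.53 and 6.80 in the PBS livers, and it rose by 1.35 (SE 0.13, adjusted p = 0.0135). Lpcat2 and Lpcat1, listed with phosphatidylcholine synthesis, reacylate lysophosphatidylcholine. Lpcat2 was at 8.12 to 8.56 against 6.23 and 6.81 and rose by 1.80 (SE 0.21, adjusted p = 0.0210). Lpcat1 rose by 1.03 (SE 0.15, adjusted p = 0.0381). Apobec1, listed with VLDL, edits the Apob transcript and rose by 1.85 (SE 0.25, adjusted p = 0.0298). Without any one CSF1-Fc liver none of these 4 passed. Without PBS liver 2 the adjusted p was 0.0611 for Lpcat2, 0.0636 for Lpcat1 and 0.0501 for Apobec1. All 4 were higher in BMDM than in PBS liver, by 1.55 to 2.44 log2 units, with limma adjusted p from 0.00296 to 0.0285. Of all probe sets, 10.2% rose in that comparison. Which cells of the liver carried the 4 transcripts was not tested.

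**Figure D4:**
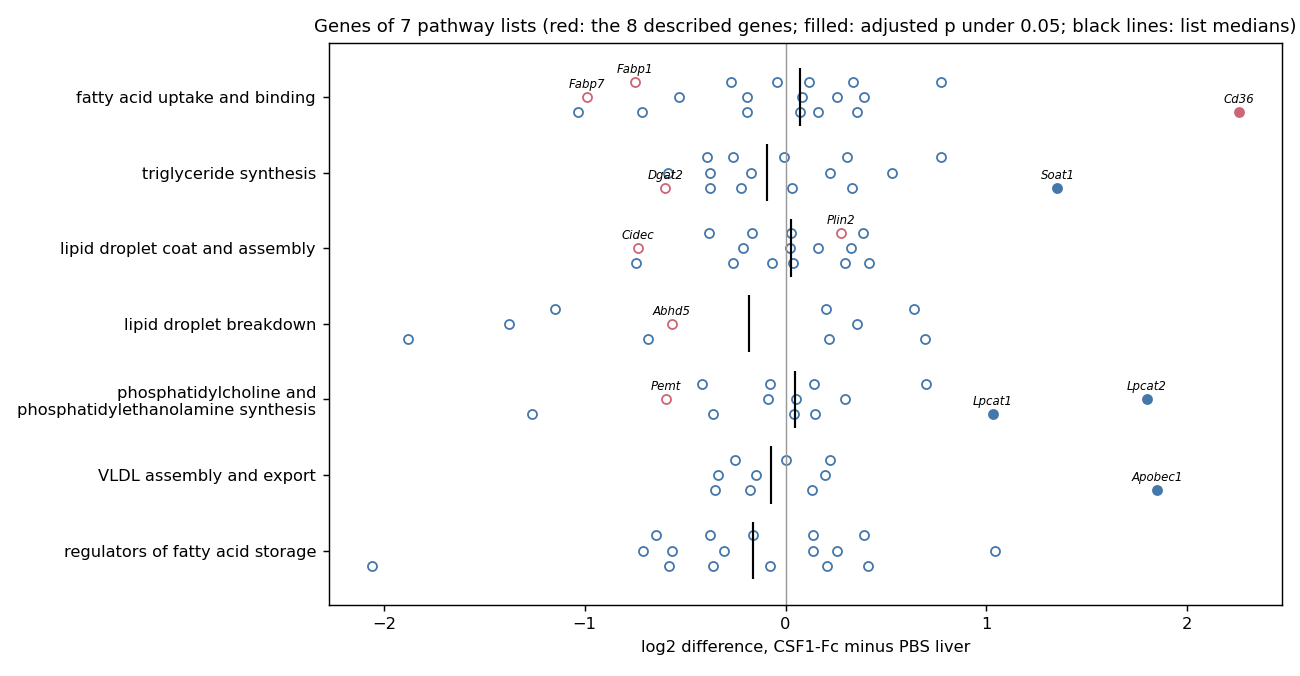
Log2 difference between CSF1-Fc and PBS liver (horizontal axis) for the 101 measured genes of 7 pathway lists. Points are genes, red for the 8 described genes and filled where the adjusted p was under 0.05, and black lines are list medians. The medians lie near 0, and the filled points are Cd36, Soat1, Lpcat1, Lpcat2 and Apobec1, all positive.

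Among fatty acid uptake and binding genes, 1 of 19 passed, which was Cd36. The next highest was Lpl, the lipase that frees fatty acids from plasma lipoproteins, at 0.77 (adjusted p = 0.305), and the lowest was Slc27a5, a liver acyl-CoA synthetase for fatty and bile acids, at -1.03 (adjusted p = 0.207). In triglyceride synthesis, Agpat5, an acyltransferase for lysophosphatidic acid, was at 0.77 with an adjusted p of 0.0502. Soat2, the cholesterol esterifying enzyme of liver and intestine, was at -0.59 (adjusted p = 0.116), opposite in sign to Soat1.

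No gene passed in limma among 16 of droplet coat and assembly (2 were lower at an unadjusted p under 0.05), where Pnpla3 was the lowest at -0.75 (adjusted p = 0.138). None of 10 passed in droplet breakdown either (1 higher and 4 lower before adjustment). There, G0s2, the inhibitor of ATGL, was at 5.51 to 7.12 in the CSF1-Fc livers and at 7.85 and 8.24 in the PBS livers, a difference of -1.88 (SE 0.49, adjusted p = 0.163). The carboxylesterase gene Ces1e was at -1.38 (adjusted p = 0.114), and Acot2, an acyl-CoA thioesterase, was the highest at 0.69 (adjusted p = 0.170).

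Beside Pemt, Gnmt, which uses the same methyl donor, was at -1.26 (adjusted p = 0.105). Aside from Apobec1, the other 9 measured VLDL genes differed by -0.35 to 0.22. Of 17 regulators none passed in limma (1 higher and 3 lower before adjustment). Fgf21, a fasting hormone made by the liver, was at 5.08 to 6.90 in the CSF1-Fc livers and at 7.957 and 7.997 in the PBS livers, with a difference of -2.06 (SE 0.50, adjusted p = 0.137). Nr1h3, the sterol receptor LXRα, was at 1.04 (adjusted p = 0.121), and Nr1i2, the xenobiotic receptor PXR, was at -0.71 (adjusted p = 0.0946).

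BMDM were compared with the liver groups to see which of these transcripts cultured macrophages carry. Against CSF1-Fc liver, 6 of 8 genes fell and 0 rose, and Cd36 and Abhd5 did not pass in limma. Over all probe sets 17.5% fell and 19.9% rose, with a median of 0.14, beside -4.67 over the 8 genes. Against PBS liver, 5 of 8 fell (10.4% of all probe sets) and 1, Cd36, rose (10.2%). Both comparisons use the same BMDM arrays. Fabp1 was at 2.91, 3.14 and 3.36 in BMDM, below the median of every array, and its difference from CSF1-Fc liver was -6.76 (SE 0.24, adjusted p = 1.15e-06). Cidec, at 3.44, 3.34 and 3.38, was likewise below the array medians, with a difference of -4.34 (adjusted p = 7.08e-07). Pemt, at 4.36, 3.86 and 4.22, differed by -6.17. Fabp7, at 4.97, 4.82 and 4.06, differed by -5.44, and Dgat2, at 5.15, 5.02 and 5.29, differed by -4.99. Whether these probe sets were above background in BMDM was not tested, so no fold is given for them. These 5 genes behaved alike against PBS liver, with differences of -7.51 to -5.07 and adjusted p of 0.000300 or less. The 10 plasma protein genes had a median difference of -9.02 between BMDM and CSF1-Fc liver, and all 10 fell.

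The lowest value of the other 3 genes on any array was 7.04, for Cd36 in PBS liver 2. Signal above background was not tested for them either. Cd36 was 5.90-fold higher in BMDM than in PBS liver (difference 2.56, SE 0.28, adjusted p = 0.00206). It was 0.30 higher than in CSF1-Fc liver (95% interval -0.05 to 0.65, adjusted p = 0.160), where BMDM 1 overlapped the treated livers. That difference passed without BMDM 1 (0.44, adjusted p = 0.0381) and after a further quantile normalization (0.48, adjusted p = 0.0393). Plin2 was at 8.49, 8.19 and 8.07 in BMDM, below every liver. It was 2.13-fold lower than in CSF1-Fc liver (difference -1.09, SE 0.17, adjusted p = 0.00153). Against PBS liver its difference of -0.81 did not pass (adjusted p = 0.144), but it did in a fit of all 9 arrays (adjusted p = 0.0366). Abhd5 was at 8.53, 8.42 and 8.12 in BMDM. The mean lay between those of the liver groups, but the arrays overlapped the CSF1-Fc livers. Its difference was 0.18 from CSF1-Fc liver (95% interval -0.19 to 0.55, adjusted p = 0.399) and -0.38 from PBS liver (95% interval -1.03 to 0.26, adjusted p = 0.392).

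The order of the group means was thus PBS liver, CSF1-Fc liver and BMDM, from high to low, for Fabp1, Fabp7, Dgat2, Cidec and Pemt. For Cd36 it was the reverse, with overlapping arrays between BMDM and CSF1-Fc liver. Plin2 was highest in CSF1-Fc liver, which overlapped PBS liver, and Abhd5 was highest in PBS liver, with CSF1-Fc liver and BMDM overlapping. Of the other 93 measured pathway genes, 52 fell and 19 rose in BMDM against CSF1-Fc liver, with a median of -1.25. Fabp4, the fatty acid binding protein of fat cells and macrophages, was at 11.18 to 11.74 in BMDM and at 5.28 to 6.60 in the 6 livers, and it rose by 5.40 against CSF1-Fc liver (SE 0.24, adjusted p = 2.67e-06).

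For each gene, the 3 most similar expression patterns were sought among 14823 other probe sets with 1 symbol, as the smallest root mean square difference of centred log2 values over the 9 arrays. For Cd36 these were Sh2d1b (0.169), Heph (0.217) and Lpcat2 (0.250). Dgat2 was followed most closely by Aqp7 (0.113), Selenbp1 (0.119) and Soat2 (0.173). C4bpb, Agmat and Agtr1a were nearest to Fabp1 (0.243 to 0.323), and Slc17a1, Miox and Gfra3 to Fabp7 (0.303 to 0.315). Pemt lay nearest to Tm6sf2 (0.205), Sult1a1 and Agxt, and Cidec to Cldn3 (0.134), Rbpms2 and Pradc1. Plin2 and Abhd5, whose group means differed by little more than 1 log2 unit at most, were matched by Mks1, Arnt and Dapk1 and by Or7g89, Mymk and Lair1 (0.104 to 0.120). The measure is a description over 9 arrays of 3 kinds.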

How the data were processed

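RNA was extracted with TRIzol, liver RNA was purified further on RNeasy columns, and samples that met the authors' RNA integrity limit were hybridized to Affymetrix Rat Gene 2.1 ST arrays. The authors checked quality with Affymetrix Expression Console, summarized the signals to probe sets and normalized them by RMA in R with the Transcription Analysis Console. The deposited values are log2 expression and were used as given. Whether all 9 arrays were normalized together is not given in the sources used here, and detection calls were not used.

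Gene names come from the platform annotation, which gave 1 symbol for 14824, several for 829 and none for 21032. For listed genes with several probe sets, the brightest in the livers on average was used. Groups were taken from the sample labels and compared with limma 3.58.1 (lmFit and eBayes, R 4.3.3), in a fit restricted to the arrays compared. Adjustment was by Benjamini-Hochberg over 36685 probe sets with a threshold of 0.05. Fits were tested on simulated data. Tables, promoter searches and plots used Python 3.11.15, pandas 2.3.3 and matplotlib 3.10.9. The small number of arrays limits the precision.

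The 8 genes and the 7 pathway and 9 marker lists were chosen with earlier results of these data known. Named genes are the 8, each pathway gene that passed between the livers, the 3 highest and 3 lowest of each pathway list, the first 4 measured genes of each marker list, and the 3 nearest patterns of each gene. C1qa, C1qb, C1qc, Pck1 and Fabp4 lie outside that rule and were named after their values were seen. Alternatives were leaving out each array, a replicate block, a joint fit of all 9 arrays, testing only bright probe sets (mean above the median) or only those with 1 symbol, a trended robust prior, repeated quantile normalization, and centring on array medians or plasma protein genes. Listed genes that were not matched to a probe set were not analysed here.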

Additional observations from a re-analysis of the deposited data

Results flagged for a closer look

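In the 4 CSF1-Fc livers, CSF1-Fc liver 3 stood below the others for Fabp1 and for Dgat2. The gap from it to the next liver made up 0.917 of the group's range for Fabp1 and 0.956 for Dgat2, above Dixon's 95% critical value for 4 samples. Chance marks about 1 in 20 groups in this way, and 8 genes were examined. The Fabp1 gap was 0.77 log2 units and the Dgat2 gap 0.10. Without this liver the difference between CSF1-Fc and PBS liver was -0.55 for Fabp1 (limma adjusted p = 0.339) and -0.57 for Dgat2 (adjusted p = 0.212).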

How the results depend on the processing

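Over the alternatives, 103 of 112 checks of single genes for CSF1-Fc against PBS liver kept their direction and side of the threshold. Most of these checks concern the 7 genes that had not passed in the main fit. Cd36, the 1 gene that had passed, no longer did so in 5 of 14 alternatives. The number kept was 110 of 112 for BMDM against CSF1-Fc liver and 95 of 96 for BMDM against PBS liver. Between the livers, the count of genes that passed, 1 of 8, was 3 (1 higher, 2 lower) when only probe sets with 1 symbol were tested, a smaller family for the adjustment. Leaving out single arrays gave 0 to 2 of the 8 genes, 0 to 2628 of all probe sets (542 with all 6 livers) and 0 to 13 of the 101 pathway genes (5 with all livers, and 3 without PBS liver 2). The 0 came from leaving out any one CSF1-Fc liver, when 4068 to 4266 probe sets still had an unadjusted p under 0.05, and the highest counts from leaving out PBS liver 1. There the lone PBS liver is assumed to vary like the treated ones. With the filter on dim probe sets 816 probe sets passed. Plin2 changed sign: with single arrays left out its difference was -0.0744 (without PBS liver 2, adjusted p = 0.920) to 0.63 (without PBS liver 1).

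The titles number the replicates of each group. Deviations of same-numbered samples were correlated at 0.02 and 0.18 between the livers. The deviations of the 2 PBS livers mirror each other, so these values cannot decide whether the number marks a pairing. With that number as a replicate block, 0 of the 8 genes and 0 of all probe sets passed between the livers (4 genes and 2692 probe sets at an unadjusted p under 0.05, lowest adjusted p = 0.543), and Cd36 differed by 2.21. In both BMDM comparisons 6 genes still passed with the block.

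For BMDM against CSF1-Fc liver, 7033 probe sets passed among those with 1 symbol, beside 13717 of all. For BMDM against PBS liver, 7569 probe sets passed, 11616 in a fit of all 9 arrays, 4841 among those with 1 symbol, and 3804 to 7185 with single arrays left out (3913 and 3804 without PBS liver 1 and 2, 5007 without BMDM 2). Between 6 and 7 of the 8 genes passed in every alternative of these 2 comparisons. Averaging over the probe sets of a gene was not run, since each of the 8 genes had 1, and centring on plasma protein genes was run for the livers only. The causes of these changes were not tested. With 2 PBS livers, a liver difference that missed the threshold is not shown to be absent.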
